A study of Mus musculus with 48 samples.

Results

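The proteasome subunit genes were taken from the array annotation by symbol: every probe set that names a single gene, with a symbol of Psm, one letter from a to g and a number, was kept. This gave 56 probe sets for 44 genes, out of 8252 genes measured. They comprise 17 genes of the core particle (7 of the alpha ring, Psma1 to Psma7, and 10 of the beta ring, Psmb1 to Psmb10), 20 of the regulatory particle (6 ATPases, Psmc1 to Psmc6, and 14 other subunits, Psmd1 to Psmd14) and 7 others, namely the activators Psme1, Psme3 and Psme4 and the assembly chaperones Psmg1 to Psmg4. Assembly chaperones of the base, such as Psmd5 and Psmd10, carry Psmd symbols and are counted here among the 14 other subunits. RefSeq lists 49 mouse genes with symbols of this form. Psma8, Psmb11, Psme2, Psme2b and Psmf1 had no probe set of their own.

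The proteasome is the protease that degrades most short-lived and damaged proteins of the cell after they have been tagged with ubiquitin. Its core is a barrel of stacked rings: the outer alpha rings form the gate and the docking surface, and the inner beta rings carry the catalytic sites. The regulatory particle binds the ubiquitin chain, removes it and threads the substrate into the core by means of its ATPase ring, whereas the other activators open the gate without needing ubiquitin. Cells whose proteasome is blocked or overloaded, as under metal or oxidative stress, are known to raise most subunit genes together through the transcription factor Nfe2l1, and an alternative set of beta subunits (Psmb8, Psmb9 and Psmb10) is induced by interferon to form the immunoproteasome.

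The study followed the forelimb bud of the mouse after a pair of teratogens known for a similar forelimb defect. At day 9.5 of gestation, pregnant mice received an intraperitoneal dose of 4 mg/kg cadmium sulfate in phosphate-buffered saline (PBS), or of 400 mg/kg acetazolamide, an inhibitor of carbonic anhydrase, in vegetable oil, and controls received PBS or oil. The right forelimb buds of embryos collected after 3 h or 12 h were parted by trypsin into ectoderm and mesoderm, and RNA was hybridised to 48 Affymetrix MG-U74Av2 arrays. The 16 groups, of 3 arrays each, are 3 h and 12 h ectoderm and mesoderm after PBS, cadmium sulfate, oil or acetazolamide. The strain was not given in the sources used here, and the labels say in one place that tissue of several litters was pooled for RNA and in another that the extracts were not pooled. Nothing states that the 3 arrays of a group came from separate pools, so the spread between arrays may be partly technical. The standard error and p-value of a gene rest on its spread over all 48 arrays, scaled by 1 weight per comparison. They do not measure the spread of the arrays of a single comparison. The deposited values are ratios to vehicle arrays: vehicle arrays 1 and 2 of each comparison summed to 2, and vehicle array 3 was 1. No level was kept, so the tissue labels could not be checked against marker levels, no gene can be compared with another in abundance, and vehicle arrays lie around 0 in log2 by construction. Values of arrays numbered 3 rest on a single vehicle array, and they were the most widely spread in several groups (SD over all genes 0.54 in 12 h cadmium ectoderm array 3, against 0.30 and 0.35 for arrays 1 and 2).

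All 7 alpha ring genes lay below vehicle in 12 h cadmium ectoderm and above it in 12 h acetazolamide ectoderm. The 250 bases before the RefSeq start site (GRCm38.p6) are shown for 3 of them, for the immunoproteasome gene Psmb10, which lay opposite to them after cadmium, and for Psme4, the gene with the largest difference. Capitals mark CCAAT, the binding motif of the factor NF-Y, or its reverse complement ATTGG. The 3 alpha ring genes shown are among the 5 of 7 that hold it. Psma4 and Psma5, which are not shown, hold none and had the same signs as the others. Psme4 holds none either, and it also lay below vehicle after cadmium and above it after acetazolamide in 12 h ectoderm. Whether the motif goes with a direction was not tested. The other motif searched, TGACNNNGC (the core of the antioxidant response element, to which Nfe2l1 binds), or its reverse complement, is in none of the 5.
Psma1, chr7:114276117-114276366, minus strand: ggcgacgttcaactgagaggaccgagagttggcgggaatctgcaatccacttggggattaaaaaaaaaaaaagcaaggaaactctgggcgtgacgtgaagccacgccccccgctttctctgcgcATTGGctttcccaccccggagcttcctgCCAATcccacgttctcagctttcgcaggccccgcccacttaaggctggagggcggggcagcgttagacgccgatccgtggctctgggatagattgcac
Psma6, chr12:55383972-55384221, plus strand: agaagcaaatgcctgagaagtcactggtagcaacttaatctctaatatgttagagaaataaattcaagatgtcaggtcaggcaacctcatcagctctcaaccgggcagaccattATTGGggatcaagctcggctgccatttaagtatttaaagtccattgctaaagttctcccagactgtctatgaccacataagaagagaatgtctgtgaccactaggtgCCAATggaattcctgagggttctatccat
Psma7, chr2:180042465-180042714, minus strand: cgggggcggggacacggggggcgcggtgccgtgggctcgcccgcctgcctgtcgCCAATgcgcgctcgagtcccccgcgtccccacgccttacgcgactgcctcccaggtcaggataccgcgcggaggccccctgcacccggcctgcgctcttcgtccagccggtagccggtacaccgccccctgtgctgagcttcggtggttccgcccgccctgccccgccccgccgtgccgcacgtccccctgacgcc
Psmb10, chr8:105938393-105938642, minus strand: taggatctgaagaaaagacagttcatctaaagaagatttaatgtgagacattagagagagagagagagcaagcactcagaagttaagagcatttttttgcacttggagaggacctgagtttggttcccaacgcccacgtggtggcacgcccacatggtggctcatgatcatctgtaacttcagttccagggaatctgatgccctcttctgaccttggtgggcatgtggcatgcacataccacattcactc
Psme4, chr11:30771525-30771774, plus strand: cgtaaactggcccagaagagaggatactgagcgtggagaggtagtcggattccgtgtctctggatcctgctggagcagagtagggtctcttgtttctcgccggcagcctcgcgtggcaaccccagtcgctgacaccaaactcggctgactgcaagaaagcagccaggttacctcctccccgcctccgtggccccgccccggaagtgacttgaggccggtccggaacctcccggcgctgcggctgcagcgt

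Windows were found for 37 of the 44 genes. CCAAT, on either strand, was in 13 of the 37 (35.1%), against 37.5% of 27018 genes with windows of the same length. Within the alpha ring it was in 5 of 7 (71.4%): Psma1, Psma2, Psma3, Psma6 and Psma7. TGACNNNGC, on either strand, was in 5 of 37 (13.5%), against 11.5% of all, and in 0 of the 7 alpha ring genes. No window of a proteasome gene held both motifs. For Psma6, RefSeq gives a further start site downstream of the one printed, and its window held neither. These matches are letters in a window and not evidence of binding.

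No proteasome gene passed the test. In limma's moderated test with Benjamini-Hochberg adjustment over all 8252 genes, 0 of 44 had an adjusted p under 0.05 in any of the 8 comparisons of an agent with its vehicle. The share of all genes called was 2.28% in 12 h cadmium mesoderm, 0.0242% in 12 h cadmium ectoderm and in 3 h acetazolamide ectoderm, 0.0364% in 3 h acetazolamide mesoderm and 0% in the other 4. The count was also 0 of 44 in the 12 tests of a difference between agents, tissues or times, where 0.46% of all genes were called for 12 h against 3 h of cadmium in mesoderm, 0.0121% in 3 others and 0% in the remaining 8. It was 0 of 44 again for the mean effect of cadmium (0.57% of all genes) and of acetazolamide (0.739%). The smallest adjusted p over all 22 contrasts was 0.0594, for the mean effect of acetazolamide on Psme4. At an unadjusted p under 0.05, the numbers of proteasome genes beside the share of all genes were 1 (3.32%) in 3 h cadmium ectoderm, 1 (3.09%) in 3 h cadmium mesoderm, 2 (4.45%) in 12 h cadmium ectoderm and 2 (13.8%) in 12 h cadmium mesoderm. They were 2 (6.86%), 3 (7.36%), 2 (7.86%) and 0 (0.788%) in the acetazolamide comparisons in the same order. One gene in 44 is 2.27%, so these counts lay near or below the share of all genes. They moved with the settings in both directions. In 12 h cadmium ectoderm the count was 17 of 44 without PBS array 1 (19% of all genes) and 0 without array 3 of either group (1.03%). In 12 h acetazolamide ectoderm it was 13 without oil array 2 (24.8%) and 0 without acetazolamide array 1 (3.1%). For 3 h acetazolamide ectoderm it was 16 with arrays 1 and 2 only (11.3%) and 0 with limma on the arrays of that comparison alone (5.57%).

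The median over the 44 genes was close to that of all genes in most comparisons. After cadmium it was 0.01 in 3 h ectoderm (24 of 44 above 0), 0.04 in 3 h mesoderm (27), -0.10 in 12 h ectoderm (16) and 0.00 in 12 h mesoderm (22), on the log2 scale of treated minus vehicle. Over all genes it was -0.01, 0.00, 0.03 and 0.01. After acetazolamide it was -0.05 in 3 h ectoderm (16 of 44 above 0), 0.05 in 3 h mesoderm (31), 0.02 in 12 h ectoderm (24) and -0.08 in 12 h mesoderm (9), against -0.04, -0.03, 0.00 and 0.01 over all genes. These are means of tissue RNA, in which fewer cells of a type and less RNA per cell cannot be told apart. The precision was limited by 3 arrays a group: the median half-width of a member's 95% interval ran from 0.25 in 12 h cadmium mesoderm to 0.49 in 12 h cadmium ectoderm, and that of single members from 0.106 to 1.03 over the same 2 comparisons.

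**Figure D1:**
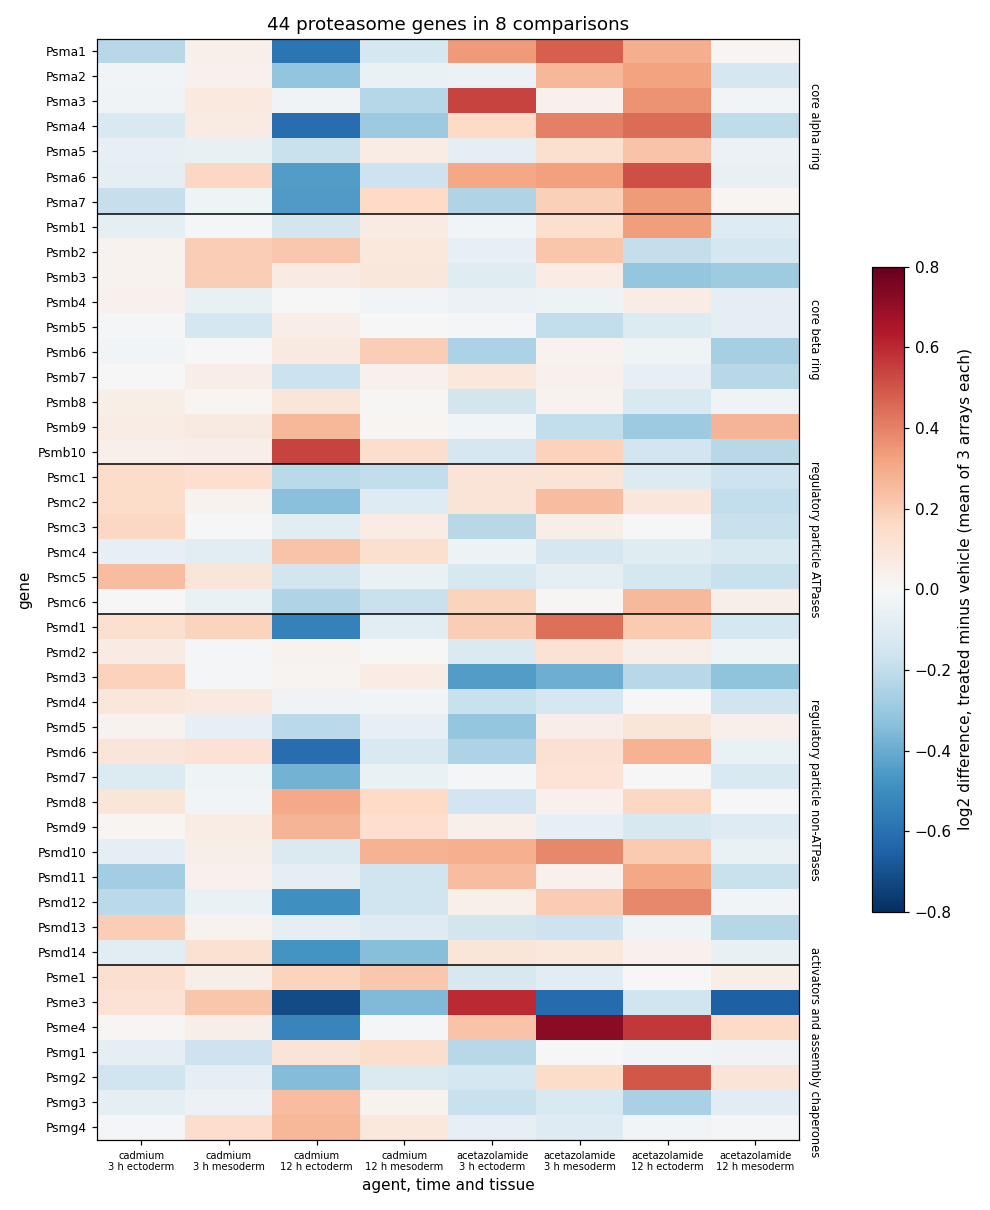
Log2 difference, treated minus vehicle, of each of the 44 proteasome genes (rows, by class, lines between classes) in the 8 comparisons (columns); each cell is a difference between means of 3 arrays and colour gives its sign and size. The alpha ring rows are all below 0 in 12 h cadmium ectoderm and all above 0 in 12 h acetazolamide ectoderm, while the beta ring rows are mixed, and no cell passed the test.

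The alpha ring genes, which form the gate of the core, lay together in sign in several comparisons, but no single gene passed the test. All 7 lay below 0 in 12 h cadmium ectoderm, with a median of -0.44 and a range from -0.61 (Psma4) to -0.03 (Psma3). All 7 lay above 0 in 12 h acetazolamide ectoderm, with a median of 0.34 and a range from 0.23 (Psma5) to 0.51 (Psma6). In 3 h acetazolamide mesoderm all 7 also lay above 0, with a median of 0.27 (0.12 without array 3 of either group). At 3 h in cadmium ectoderm all 7 also lay below 0, but close to it (median -0.07, and 0.09 without array 3 of either group). The medians of the other comparisons were 0.04 in 3 h cadmium mesoderm (5 of 7 above 0), -0.14 in 12 h cadmium mesoderm (2 of 7), 0.16 in 3 h acetazolamide ectoderm (4 of 7) and -0.04 in 12 h acetazolamide mesoderm (2 of 7). None of these genes had an adjusted p under 0.05 in any contrast.

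Psma4 had the lowest alpha ring value after cadmium. In 12 h ectoderm its log2 ratios were -0.50, -0.23 and -1.14 on the 3 cadmium arrays and -0.27, 0.23 and 0 on the PBS arrays. The groups overlap, because cadmium array 2 lies above PBS array 1, and array 3 lies lowest. The difference was -0.61 ± 0.40 (SE from the fit to all 48 arrays, n = 3 arrays each, limma, adjusted p = 0.983). Psma7 gave -0.15, -0.87 and -0.38 against -0.25, 0.22 and 0, with array 2 the lowest and cadmium array 1 within the PBS range. Its difference was -0.45 ± 0.27 (limma, adjusted p = 0.983). Psma6 gave 0.14, -0.10 and -1.40 against -0.23, 0.20 and 0: arrays 1 and 2 lay within the PBS range and array 3 alone below it, for a difference of -0.44 ± 0.35 (limma, adjusted p = 0.983). Psma1 gave -0.59, -0.08 and -1.29 against -0.66, 0.45 and 0, for -0.58 ± 0.46, with arrays 1 and 2 within the PBS range. Array 3 was the lowest for Psma1, Psma4, Psma5 and Psma6, array 2 for Psma2 and Psma7, and array 1 for Psma3. The median over the ring was -0.23, -0.10 and -0.42 on cadmium arrays 1, 2 and 3. Leaving out cadmium array 3 reduced the ring's median difference to -0.23, and over all single arrays left out it ran from -0.58 to -0.23.

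After acetazolamide, Psma7 in 12 h ectoderm gave 0.28, 0.30 and 0.41 on the acetazolamide arrays against -0.24, 0.21 and 0 on the oil arrays. All treated arrays lay above all vehicle arrays, and the difference was 0.34 ± 0.23 (limma, adjusted p = 0.687). Psma6 gave 0.27, 0.20 and 1.05 against -0.15, 0.13 and 0, also without overlap, for 0.51 ± 0.30 (limma, adjusted p = 0.662). Psma2 did not overlap either, at 0.18, 0.25 and 0.53 against -0.10, 0.10 and 0. Psma4, by contrast, gave 0.06, -0.26 and 1.51 against -0.19, 0.16 and 0, so that its difference of 0.45 ± 0.34 rested on array 3. Psma1 was similar, with -0.05, -0.20 and 1.10 against -0.20, 0.17 and 0. The median over the ring was 0.18, 0.20 and 0.53 on the 3 acetazolamide arrays, and its median difference ran from 0.22 to 0.48 when single arrays were left out.

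The ring was less uniform 3 h after acetazolamide in ectoderm, where array 3 stood apart. The median over the 7 genes was -0.54 and -0.24 on arrays 1 and 2 and 1.32 on array 3. Psma1 gave -0.72, -0.11 and 1.82 against 0.18, -0.20 and 0 on the oil arrays, and Psma4 gave -0.69, -0.45 and 1.62 against 0.15, -0.16 and 0. Psma7 gave -1.06, -0.30 and 0.64 against 0.05, -0.05 and 0. Psma3 was above 0 on every array (0.19, 0.10 and 1.32 against -0.15, 0.14 and 0) and had the largest moderated t of the class, at a difference of 0.54 ± 0.17 (limma, adjusted p = 0.494). The median over all 44 genes was -0.27, -0.15 and 0.37 on the 3 arrays. Without array 3 the ring's median difference was -0.39, 4 of 44 members lay above 0 (48.3% of all genes), and 2 of 44 passed the test (0.945% of all genes): Psma7 at -0.68 (limma, adjusted p = 0.0302) and Psmd6 at -0.66 (adjusted p = 0.0281). The median of all 44 genes was below 0 both with array 3 (-0.05) and without it (-0.21). It lay above 0 without acetazolamide array 1 (0.0376) and without oil array 1 (0.0414). Of the single arrays left out, only array 3 of either group turned the sign of the alpha ring's median.

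**Figure D2:**
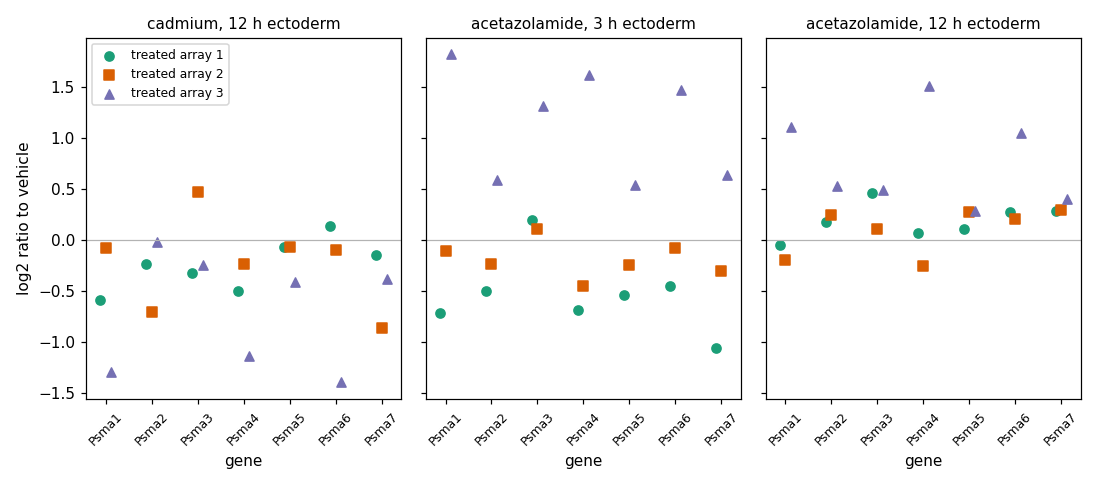
Log2 ratio to vehicle of the 7 alpha ring genes (horizontal axis) on each of the 3 treated arrays, in 12 h cadmium ectoderm, 3 h acetazolamide ectoderm and 12 h acetazolamide ectoderm. In the middle panel array 3 lies above arrays 1 and 2 for every gene, from 0.54 (Psma5) to 1.82 (Psma1); in the left panel the array lying lowest differs between genes.

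In 3 h acetazolamide mesoderm the alpha ring median was more even from array to array than in 3 h acetazolamide ectoderm. Psma1 gave 0.33, 0.34 and 0.74 on the acetazolamide arrays against 0.09, -0.09 and 0 on the oil arrays, for 0.48 ± 0.32 (limma, adjusted p = 0.804). Psma7 gave 0.19, 0.11 and 0.27 against -0.10, 0.09 and 0. Treated arrays lay above all vehicle arrays for 4 of the 7, namely Psma1, Psma4, Psma5 and Psma7. The median over the ring was 0.18, 0.12 and 0.27 on the arrays. Over the whole family, 12 of 44 genes did not overlap in this comparison, beside 15.9% of all genes, and 10 of these had all treated arrays above vehicle, beside 9.33% of all genes. The corresponding counts in 12 h acetazolamide ectoderm were 9 of 44 (16.8% of all genes) and 7 above (8.48%). In the other comparisons the groups did not overlap for 1 of 44 in 3 h cadmium ectoderm (9.39% of all genes), 6 in 3 h cadmium mesoderm (9.63%), 4 in 12 h cadmium ectoderm (10%), 8 in 12 h cadmium mesoderm (19.3%), 1 in 3 h acetazolamide ectoderm (13.9%) and 2 in 12 h acetazolamide mesoderm (5.91%).

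The beta ring genes, which include the catalytic subunits, did not follow the alpha ring. Their medians were 0.03, 0.03, 0.07 and 0.05 in 3 h ectoderm, 3 h mesoderm, 12 h ectoderm and 12 h mesoderm after cadmium, with 7, 6, 7 and 9 of 10 genes above 0. After acetazolamide they were -0.06, 0.03, -0.12 and -0.12, with 1, 7, 2 and 1 of 10 above 0. Thus in 12 h ectoderm the medians of the rings had opposite signs under both agents. The constitutive catalytic subunits Psmb5 (chymotrypsin-like), Psmb6 (caspase-like) and Psmb7 (trypsin-like) ranged from -0.17 to 0.07 in 12 h cadmium ectoderm and from -0.11 to -0.04 in 12 h acetazolamide ectoderm. Psmb5, a mean of 2 probe sets, gave -0.13, -0.17 and -0.29 against 0.07, -0.08 and 0 in 3 h acetazolamide mesoderm. Every treated array lay below every vehicle array, for a difference of -0.19 ± 0.09 (limma, adjusted p = 0.643). On these acetazolamide arrays 1 probe set gave 0.22, 0.12 and -0.50 and the other -0.49, -0.46 and -0.08. Psmb5 was thus even there only as a mean of the 2. In 3 h cadmium mesoderm it gave -0.14, -0.15 and -0.15 against 0.12, -0.13 and 0, for -0.14 ± 0.07 (limma, adjusted p = 1). Psmb4, a structural beta subunit, stayed between -0.08 and 0.06 in all 8 comparisons. Psmb1, another structural subunit, was the beta gene farthest above 0 in 12 h acetazolamide ectoderm (0.30, 0.08 and 0.60 against -0.16, 0.14 and 0, for 0.34 ± 0.17; limma, adjusted p = 0.644), and Psmb3 the farthest below (-0.28, -0.46 and -0.19 against 0.02, -0.02 and 0, for -0.31 ± 0.28; adjusted p = 0.733).

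**Figure D3:**
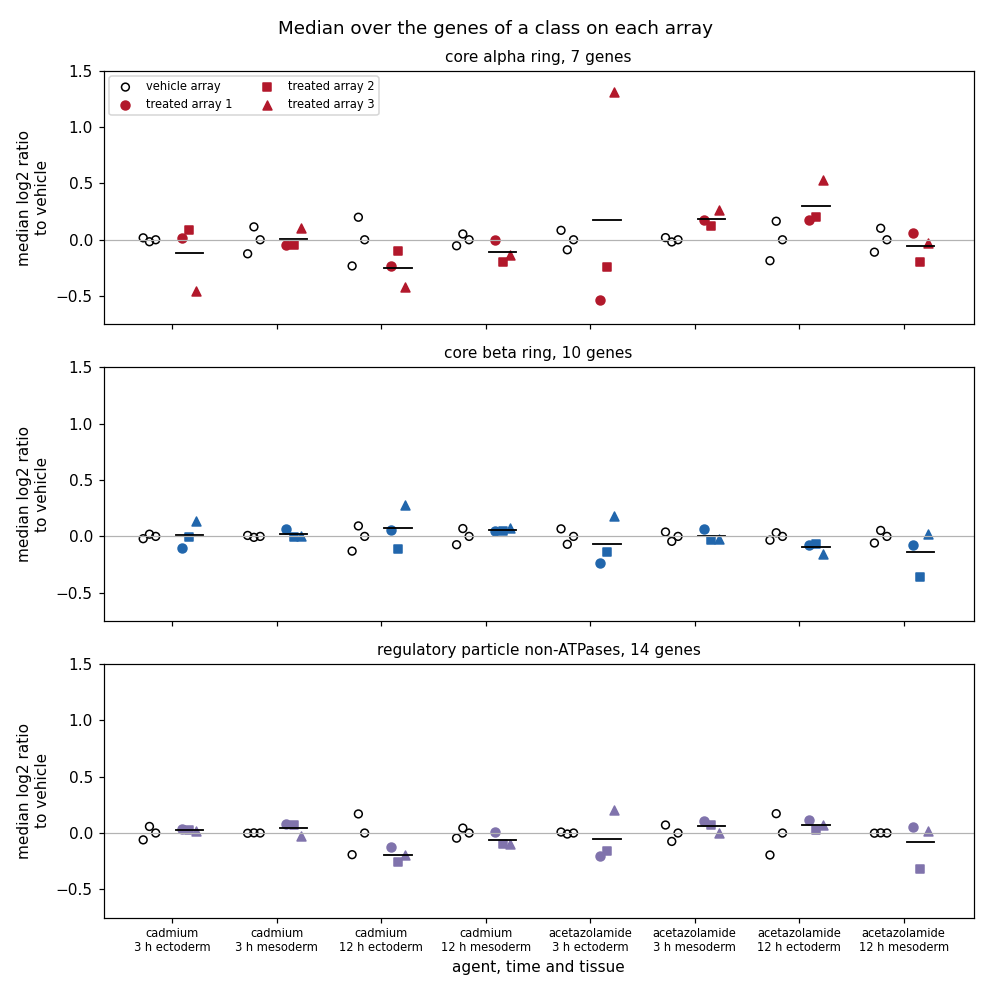
Median log2 ratio to vehicle over the genes of a class on every array, for the alpha ring, the beta ring and the regulatory particle subunits other than ATPases; open circles are the 3 vehicle arrays, filled symbols the 3 treated arrays and the bar their mean, over the 8 comparisons. In 12 h ectoderm the alpha ring lies at -0.23, -0.10 and -0.42 after cadmium and at 0.18, 0.20 and 0.53 after acetazolamide, and its highest value, 1.32, is array 3 of 3 h acetazolamide ectoderm.

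The 3 immunoproteasome subunits lay above 0 in all 4 cadmium comparisons, with medians of 0.05, 0.05, 0.27 and 0.02. Psmb10, which replaces the trypsin-like subunit, had the largest value. Its arrays in 12 h cadmium ectoderm gave 0.66, 0.09 and 0.82 against -0.27, 0.23 and 0 on the PBS arrays, so arrays 1 and 3 lay above all PBS arrays and array 2 within them. The difference was 0.54 ± 0.20 (limma, adjusted p = 0.89). Psmb9, which replaces the caspase-like subunit, gave -0.04, 0.20 and 0.54 against 0.33, -0.43 and 0, for 0.27 ± 0.22, and Psmb8, which replaces the chymotrypsin-like subunit, gave 0.00, 0.08 and 0.19 against 0.19, -0.22 and 0, for 0.10 ± 0.15. Both overlap their controls. After acetazolamide, all 3 lay below 0 in 3 h and in 12 h ectoderm, with medians of -0.13 and -0.15. In 12 h mesoderm Psmb9 lay at 0.27 ± 0.16 (limma, adjusted p = 1), with 0.04, 0.67 and 0.10 on the acetazolamide arrays, so array 2 alone stood out. Psmb10 lay at -0.22 ± 0.14 there (-0.35, -0.36 and 0.03). Over the mean of the 4 cadmium comparisons Psmb10 was at 0.19 ± 0.07 (limma, adjusted p = 0.29). It passed the test only when cadmium array 2 of 12 h ectoderm was left out (0.24, limma, adjusted p = 0.0482). Psme1 passed in that setting too (0.21, limma, adjusted p = 0.0364). The Gapdh control probe sets had a 3' to 5' log2 ratio of 1.80 on the array left out. The share of all genes called there is not given, so the call is not a result particular to Psmb10.

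Of the antigen presentation genes that neighbour the immunoproteasome in function, 9 of a list of 12 were measured, and 0 of 9 passed the test in any comparison of an agent with its vehicle. Of these, 7 of 9 lay above 0 with a median of 0.16 in 12 h cadmium ectoderm, and Tap1, a subunit of the peptide transporter, was the farthest from 0 relative to its error at 0.48 ± 0.18 (limma, adjusted p = 0.947). Markers of blood leukocytes and macrophages, which express the immunoproteasome, had a median of 0.09 with 7 of 10 above 0 in that comparison; none of them passed the test, and the part of these cells in the Psmb10 value was not tested.

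In 12 h ectoderm the medians of the regulatory particle classes lay closer to 0 than that of the alpha ring under either agent. The 6 ATPases, which unfold the substrate, had a median of -0.18 with 1 of 6 above 0 in 12 h cadmium ectoderm. Psmc4 was the exception, at 0.25, 0.10 and 0.33 against 0.09, -0.10 and 0, where each cadmium array lay above all PBS arrays (0.23 ± 0.13; limma, adjusted p = 0.983). Psmc4 was also above 0 in 12 h cadmium mesoderm, at 0.10, 0.10 and 0.18 against 0.01, -0.01 and 0 (0.13 ± 0.07; adjusted p = 0.404). In 3 h cadmium ectoderm 5 of 6 ATPases lay above 0 with a median of 0.15, and Psmc5 had the largest moderated t of the family there (0.16, 0.22 and 0.36 against -0.02, 0.02 and 0, for 0.25 ± 0.11; limma, adjusted p = 0.999). After acetazolamide 5 of 6 lay below 0 in 12 h mesoderm, with a median of -0.17. Psmc5 was the lowest there relative to its error (-0.17, -0.44 and 0.07 against -0.08, 0.08 and 0, for -0.18 ± 0.13; limma, adjusted p = 1). Psmc3 gave -0.55, -0.40 and 0.28 against 0.02, -0.02 and 0 in 3 h acetazolamide ectoderm (-0.22 ± 0.15), where array 3 again lay opposite to arrays 1 and 2. Psmc4 gave -0.19, -0.22 and 0.01 against 0.06, -0.06 and 0 in 3 h acetazolamide mesoderm (-0.14 ± 0.09), so that array 3 overlaps its vehicle.

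Among the 14 other subunits of the regulatory particle, 10 lay below 0 in 12 h cadmium ectoderm (median -0.10) and 10 above 0 in 12 h acetazolamide ectoderm (median 0.07). Psmd6, a scaffold subunit of the lid, had the lowest moderated t after cadmium. It gave -0.28, -0.65 and -0.92 against -0.19, 0.17 and 0, with every cadmium array below every PBS array and a difference of -0.61 ± 0.27 (limma, adjusted p = 0.983). Psmd1, the large scaffold of the base to which a ubiquitin receptor docks, gave -0.18, -0.28 and -1.18 against -0.21, 0.18 and 0, for -0.54 ± 0.27, and Psmd12, a lid scaffold, gave -0.37, -0.06 and -1.07 against -0.21, 0.18 and 0, for -0.49 ± 0.25 (adjusted p = 0.983 for both, limma). For both, array 3 is far below the others. Psmd14, the enzyme that removes the ubiquitin chain from the substrate, was even on the 12 h cadmium mesoderm arrays: -0.32, -0.38 and -0.33 against -0.03, 0.02 and 0. All cadmium arrays lay below all PBS arrays, and the difference of -0.34 ± 0.15 did not pass adjustment (limma, adjusted p = 0.262). Psmd14 in 12 h cadmium ectoderm was at -0.48 ± 0.28, with 1 of 3 arrays (0.01) not below 0. Psmc1, an ATPase, and Psma3 also lay below all PBS arrays in 12 h cadmium mesoderm (-0.20 ± 0.11 and -0.23 ± 0.13), while Psmd10, also known as gankyrin, an assembly chaperone of the base, lay above them at 0.24, 0.01 and 0.59 (0.28 ± 0.15; limma, adjusted p = 0.395).

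At 3 h after cadmium the values were small throughout the family. Apart from Psmc5, the highest moderated t in ectoderm belonged to Psmc3 (0.01, 0.26 and 0.20 against -0.12, 0.11 and 0, for 0.16 ± 0.14) and Psme1 (-0.02, 0.06 and 0.33 against -0.02, 0.01 and 0, for 0.13 ± 0.11). The lowest were those of Psmd11 (0.05, -0.24 and -0.73 against -0.29, 0.21 and 0, for -0.28 ± 0.16), a lid scaffold, Psmd12 (0.00, 0.05 and -0.69 against 0.05, -0.06 and 0, for -0.21 ± 0.16) and Psma7 (-0.14, 0.04 and -0.45 against 0.10, -0.11 and 0). These groups all overlap, and array 3 is the lowest in each of the 3 lower genes. In 3 h cadmium mesoderm Psmb2, a structural beta subunit, gave 0.16, 0.25 and 0.16 against -0.17, 0.15 and 0, with every cadmium array above every PBS array (0.20 ± 0.11; limma, adjusted p = 1). Psmd1 (0.15, 0.17 and 0.21 against -0.09, 0.08 and 0) and Psmg4 (0.23, 0.13 and 0.06 against 0.00, 0.00 and 0) did not overlap either, at 0.18 ± 0.14 and 0.14 ± 0.12. Psmg1 gave -0.15, -0.23 and -0.14 against -0.17, 0.15 and 0 (-0.17 ± 0.12), and Psmc4 gave -0.08, -0.17 and -0.02 against 0.12, -0.13 and 0 (-0.09 ± 0.07), both with overlap.

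After acetazolamide, Psmd10 was the regulatory particle gene most evenly above vehicle in 3 h mesoderm: 0.33, 0.33 and 0.48 against -0.07, 0.07 and 0 (0.38 ± 0.20; limma, adjusted p = 0.698). In 3 h ectoderm it gave -0.37, -0.09 and 1.29 against -0.22, 0.19 and 0, so its difference of 0.29 came from array 3 and turned to -0.22 without it. Psmd5, another base chaperone, was below all oil arrays in 3 h ectoderm at -0.61, -0.30 and -0.02 against -0.01, 0.01 and 0 (-0.31 ± 0.14; limma, adjusted p = 0.698). Psmd3, a lid scaffold, was below 0 in all 4 acetazolamide comparisons, from -0.45 to -0.22, with standard errors from 0.29 to 0.36 and wide arrays such as 0.08, -0.26 and -1.15 in 3 h ectoderm. Psmd1 in 3 h mesoderm gave 0.21, 0.11 and 0.96 against 0.18, -0.21 and 0 (0.44 ± 0.18; limma, adjusted p = 0.596), and also passed the test when oil array 1 was left out (0.63, adjusted p = 0.0347). Psmd11 had 3 probe sets that disagreed in sign. In 12 h acetazolamide ectoderm the lowest was at -0.23 and the highest at 0.84, and in 12 h cadmium ectoderm at -0.48 and 0.26. They ran from -0.16 to 0.53 in 3 h acetazolamide ectoderm and from -0.39 to 0.44 in 3 h acetazolamide mesoderm. The mean of Psmd11 (0.31 and -0.08 in 12 h acetazolamide and cadmium ectoderm) is therefore uncertain. For Psme1 in 12 h cadmium mesoderm the probe sets were at -0.08 and 0.50.

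Psme4 encodes a large nuclear activator that caps the core without ATP, and it had the largest single-gene difference of the family beside its error. In 3 h acetazolamide mesoderm its log2 ratios were 0.65, 0.79 and 0.71 on the acetazolamide arrays and 0.16, -0.18 and 0 on the oil arrays. The groups are well apart and the 3 treated arrays lie close together. The difference was 0.72 ± 0.20, a fold of 1.65 (limma, adjusted p = 0.366). It passed the test when oil array 1 was left out (0.82, adjusted p = 0.0175; 1.71% of all genes called), the oil array on which the actin control probe sets had a 3' to 5' log2 ratio of 1.30. In 12 h acetazolamide ectoderm Psme4 gave 0.35, 0.34 and 0.99 against -0.21, 0.18 and 0, again without overlap, for 0.57 ± 0.25 (adjusted p = 0.622). In 3 h ectoderm it gave -0.12, -0.07 and 0.86 (0.23 ± 0.20) and in 12 h mesoderm 0.57, 0.17 and -0.28 (0.15 ± 0.21), so neither group stood apart from vehicle there. Its 4 acetazolamide values were all above 0, and their mean was 0.42 ± 0.11, with a 95% interval from 0.20 to 0.64 (limma, adjusted p = 0.0594). At an unadjusted p under 0.05, this contrast held 6 of 44 proteasome genes and 14.1% of all genes. Over 32 alternatives the adjusted p of this mean ran from 0.0213 to 0.277 and was under 0.05 in 5.

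After cadmium Psme4 was near 0 at 3 h in both tissues and in 12 h mesoderm (0.01, 0.04 and -0.01). In 12 h ectoderm it gave 0.04, -0.37 and -1.29 against -0.26, 0.22 and 0, for -0.53 ± 0.29 (limma, adjusted p = 0.983), with array 3 farthest below. The cadmium and acetazolamide effects on Psme4 in 12 h ectoderm differed by -1.09 ± 0.38 (95% interval from -1.88 to -0.31; limma, adjusted p = 0.325).

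**Figure D4:**
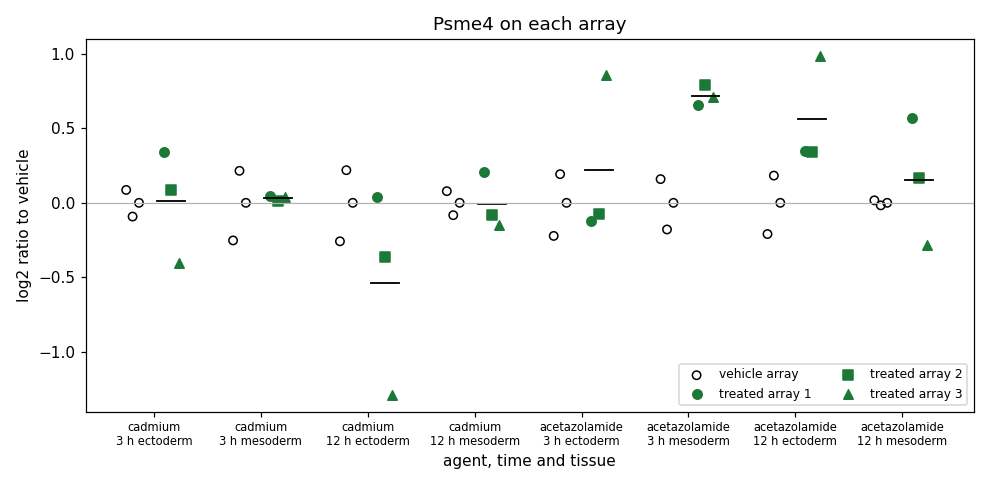
Log2 ratio to vehicle of Psme4 on each array over the 8 comparisons; open circles are vehicle arrays, filled symbols treated arrays 1, 2 and 3, and the bar is the mean of the treated arrays. The 3 acetazolamide arrays of 3 h mesoderm lie between 0.65 and 0.79, above the oil arrays, and the lowest value, -1.29, is cadmium array 3 of 12 h ectoderm.

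The other activators behaved differently. Psme1, a subunit of the interferon-inducible activator, was above 0 in all 4 cadmium comparisons and highest relative to its error in 12 h mesoderm, at 0.22, 0.33 and 0.07 against -0.14, 0.12 and 0 (0.21 ± 0.09; limma, adjusted p = 0.259). Cadmium array 3 overlaps PBS array 2. The 2 probe sets of Psme1 lay at 0.50 and -0.08 in this comparison, so its mean there is uncertain. Psme3, the nuclear homologue of Psme1, had arrays far apart. It gave -1.28, 0.33 and -1.20 against -0.13, 0.12 and 0 in 12 h cadmium ectoderm (-0.71 ± 0.50; limma, adjusted p = 0.983), 0.72, -0.17 and 1.23 in 3 h acetazolamide ectoderm (0.60 ± 0.35), -1.31, -1.20 and 0.23 in 3 h acetazolamide mesoderm (-0.61 ± 0.35) and -0.85, -1.01 and -0.10 in 12 h acetazolamide mesoderm (-0.65 ± 0.36). Oil array 1 of 3 h mesoderm was itself at -1.04, so none of these values stands clear of the spread between arrays.

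The assembly chaperones pair up to build the alpha ring. Psmg2 was the member of the family with the highest moderated t in 12 h acetazolamide ectoderm, at 0.54, 0.52 and 0.42 against -0.14, 0.13 and 0, with all treated arrays above all oil arrays (0.50 ± 0.20; limma, adjusted p = 0.622). In 12 h cadmium ectoderm it gave -0.33, -0.35 and -0.41 against -0.25, 0.21 and 0, and here all treated arrays lay below all PBS arrays (-0.35 ± 0.24; adjusted p = 0.983). Psmg2 is thus a gene whose opposite values in 12 h ectoderm did not rest on array 3; the difference between the agents was -0.84 ± 0.31 (limma, adjusted p = 0.335). Psmg3 had the reverse signs, 0.25 ± 0.18 after cadmium (0.12, 0.28 and 0.26 against 0.21, -0.29 and 0) and -0.26 ± 0.15 after acetazolamide (-0.32, -0.16 and -0.35 against 0.15, -0.20 and 0), with overlap in both. These values are means of 2 probe sets of unlike size, at 0.37 and 0.12 after cadmium and at -0.49 and -0.03 after acetazolamide. In 12 h acetazolamide mesoderm Psmg2 was at 0.10 ± 0.17 (0.25, 0.00 and 0.05 against -0.18, 0.16 and 0). Psmg1 and Psmg4 lay within 0.27 of 0 in 12 h ectoderm under either agent.

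The question of whether both agents acted alike on these genes was addressed by the difference between their effects in each tissue at each time. The differences were widest in 12 h ectoderm, where 9 of 44 proteasome genes had an unadjusted p under 0.05, beside 11.7% of all genes, and 0 passed adjustment. Lower after cadmium were Psme4, Psmg2, Psmd12 (-0.88 ± 0.32), Psmd6 (-0.89 ± 0.35), Psma7 (-0.79 ± 0.36), Psmd1 (-0.75 ± 0.35) and Psma6 (-0.96 ± 0.47), with adjusted p from 0.325 to 0.424 in limma. Psmb10 (0.69 ± 0.27) and Psmg3 (0.51 ± 0.23) lay the other way. All 7 alpha ring genes were lower after cadmium than after acetazolamide, with a median difference of -0.79. The count of 9 ran from 1 to 18 over 21 alternatives; it was 2 without array 3 of a cadmium or PBS group (4.39% of all genes) or of an acetazolamide or oil group (7.84%), and 18 without PBS array 1 (27.5%). Across the 44 genes, the effects of cadmium and acetazolamide in 12 h ectoderm had a Pearson correlation of -0.61, and 10 of 44 had the same sign (22.7%, against 28.4% of all genes, whose correlation was -0.46). The sign of this relation was therefore shared with genes at large. The 2 comparisons have separate vehicle arrays, but genes share arrays and are not independent points.

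**Figure D5:**
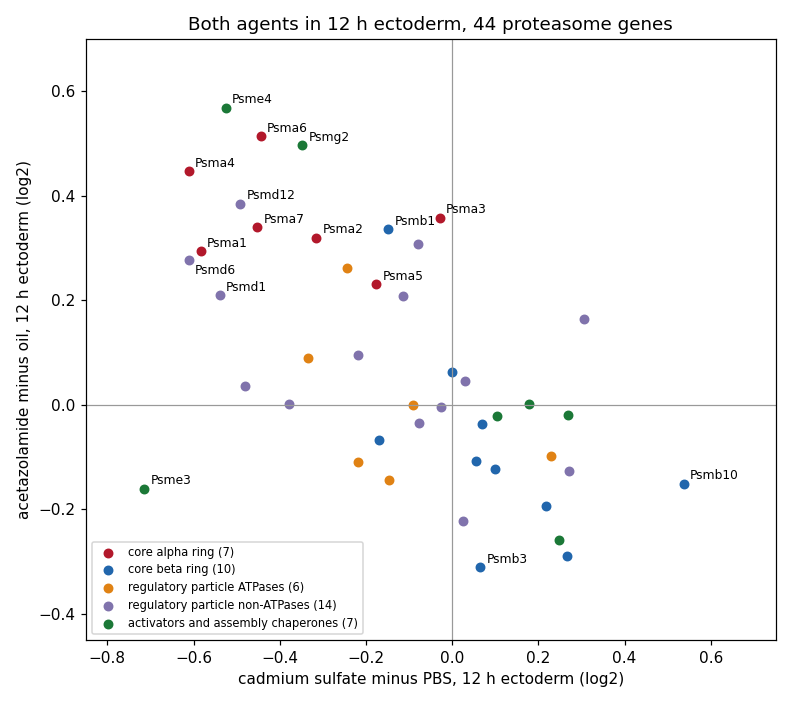
Log2 difference from vehicle in 12 h ectoderm after cadmium sulfate (horizontal axis) and after acetazolamide (vertical axis) for each of the 44 proteasome genes, coloured by class; each value is a difference of means of 3 arrays. The 7 alpha ring genes all lie in the upper left of the plot, with Psme4, Psmg2 and several regulatory particle genes, whereas Psmb10 lies far to the right, and the values of single genes have 95% half-widths of about 0.49 and 0.42.

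Between tissues, the cadmium effects at 12 h were alike in direction: ectoderm and mesoderm had the same sign for 38 of 44 proteasome genes (86.4%, against 67.1% of all genes), with a Pearson correlation of 0.67 (0.57 over all genes). For acetazolamide the closest pair was 3 h mesoderm and 12 h ectoderm, with the same sign for 33 of 44 (75%, against 68.9% of all genes) and a correlation of 0.66 (0.38). These are descriptions over genes of the same arrays. Counting signs by gene, 0 of 44 lay on the same side of 0 in all 8 comparisons. Across the 4 cadmium comparisons 7 lay always above 0 (Psmb2, Psmb3, Psmb8, Psmb9, Psmb10, Psmd9 and Psme1) and 3 always below (Psmd7, Psmd12 and Psmg2). Across the 4 acetazolamide comparisons 3 lay always above (Psma1, Psmc6 and Psme4) and 8 always below (Psmb5, Psmc4, Psmc5, Psmd3, Psmd4, Psmd13, Psmg3 and Psmg4).

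In 12 h acetazolamide mesoderm, 35 of 44 genes lay below 0, and this too rested on 1 array. The median over the 44 genes was 0.03, -0.29 and 0.00 on arrays 1, 2 and 3, and without array 2, 25 of 44 lay above 0. Array 2 had a log2 ratio of the Gapdh control probe sets, 3' over 5', of 1.72 above its vehicle, against -0.19 and -0.05 on the other arrays. The same measure was 1.80 on array 2 of 12 h cadmium ectoderm, against -0.67 and 0.44 on arrays 1 and 3. The mean of this measure, treated minus vehicle, was from 0.41 to 0.59 in the 4 acetazolamide comparisons and 0.49 in 12 h cadmium ectoderm, and from -0.25 to 0.10 in the other cadmium comparisons. For the actin control probe sets the mean difference was 0.52 in 3 h acetazolamide mesoderm, with 1.55, 1.10 and -0.03 on the acetazolamide arrays and 1.30, -0.24 and 0 on the oil arrays, and from -0.08 to 0.26 in the other comparisons. The part of RNA quality in these values was not tested.

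Markers of the tissues and of other cells were set beside these comparisons. In 12 h cadmium ectoderm 5 of 11 surface ectoderm markers lay above 0 (median -0.12, range -1.004 to 0.70), as did 6 of 8 limb mesoderm markers (0.10), 8 of 8 endothelial markers (0.13) and 6 of 7 red cell markers (0.23, up to 1.27), with 0 passing the test. After acetazolamide, in 12 h ectoderm, 9 of 11 ectoderm markers lay above 0 (0.22, up to 0.94), 4 of 8 mesoderm (0.05), 4 of 8 endothelial (-0.05), 3 of 7 red cell (-0.08) and 2 of 10 leukocyte markers (-0.11). In 3 h acetazolamide mesoderm 2 of 8 mesoderm (-0.14), 2 of 8 endothelial (-0.19), 2 of 7 red cell (-0.08), 2 of 10 leukocyte (-0.05) and 6 of 11 ectoderm markers (0.00) lay above 0. In 12 h cadmium mesoderm 8 of 8 endothelial and 7 of 7 red cell markers lay above 0, and Tie1, Eng and Alas2 rose (0.63, 0.58 and 0.53; limma, adjusted p = 0.00187, 0.0425 and 0.0169). Whether the cell mixture had a part in the proteasome values was not tested.

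Of the genes that feed the proteasome, 16 of a list of 27 for ubiquitin and its activation and conjugation and 21 of 29 for delivery to the proteasome and its regulation were measured. In the ubiquitin list 0 of 16 passed the test in any comparison with vehicle; 12 of 16 lay below 0 in 12 h cadmium mesoderm (median -0.18) and 10 of 16 in 12 h cadmium ectoderm (-0.06), where Ube2a, a ubiquitin-conjugating enzyme, was the farthest from 0 relative to its error (-0.79 ± 0.36; limma, adjusted p = 0.983). In the delivery list 1 of 21 passed, in 12 h cadmium mesoderm, where 2.28% of all genes were called. Usp14, a deubiquitinase that trims chains at the regulatory particle, fell in 12 h cadmium mesoderm by 0.52 on the log2 scale (SE 0.10; limma, adjusted p = 0.00354). This call was lost without array 3 of either group (-0.43, adjusted p = 0.102) and in a fit without precision weights (adjusted p = 0.231). The subunit genes in that comparison had a median of 0.00, with 2 of 44 at an unadjusted p under 0.05. Ubqln1, a shuttle that brings ubiquitinated proteins to the proteasome, was at -0.68 ± 0.27 in 12 h cadmium ectoderm (adjusted p = 0.983), and Ecpas, a scaffold that binds the proteasome, at 0.50 ± 0.24 in 12 h acetazolamide ectoderm (adjusted p = 0.632).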

How the data were processed

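The deposited table gives, for 12488 probe sets on 48 arrays, a ratio that the authors formed to vehicle arrays; the normalization is not given in the sources used here. That treated arrays 1 and 2 share the mean of vehicle arrays 1 and 2 as denominator, and treated array 3 vehicle array 3, was inferred from the numbering. Ratios were converted to log2, and the 10855 probe sets with a single gene symbol were reduced to 1 mean for each of 8252 genes. Samples were grouped by their labels. Limma 3.58.1 in R 4.3.3 was fitted to all 48 arrays with 16 denominator means, 8 agent effects (24 residual degrees of freedom) and 1 precision weight per comparison, with eBayes and Benjamini-Hochberg adjustment over all genes at 0.05. A design assuming levels was replaced because only ratios were kept. The fit was tested on simulated data. Genes are named by rule: the 3 highest and 3 lowest moderated t of each comparison, probe sets differing in sign by over 0.5, sign patterns, and, of other lists, the called genes and the largest t. The alpha ring genes, Psmb8 and Psmb9 beyond this rule were chosen after their values were seen. The members and lists were chosen with earlier results of these data known. Promoters and symbols come from RefSeq tables (GRCm38.p6). Alternatives left out single arrays or changed the weights, denominators, centring, probe set summary and variance estimate.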

Additional observations from a re-analysis of the deposited data

Results flagged for a closer look

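Groups of 3 arrays were too small for a test of outlying samples. Over 12 pairs of groups that differ in 1 factor and 6 sets of genes, 4 of 72 medians had every treated array of one group below 0 and every treated array of the other above 0. These differences of medians were not tested, and of the single genes in them 0 of 44 passed the test of a difference. In 12 h ectoderm, the median of the alpha ring averaged -0.25 on the cadmium arrays and 0.30 on the acetazolamide arrays, a difference of -0.55. For the regulatory particle subunits other than ATPases the averages were -0.19 and 0.07, a difference of -0.26, and for all 44 genes they were -0.15 and 0.05, a difference of -0.19. Between 3 h and 12 h of cadmium in ectoderm, the regulatory particle subunits other than ATPases averaged 0.03 and -0.19, a difference of 0.22.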

How the results depend on the processing

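Counts of called proteasome genes were 0 in all 22 contrasts with each array centred on its median, the median over probe sets, each probe set by itself, robust eBayes, only arrays 1 and 2 and, an alternative chosen after seeing the data, without probe sets of less specific suffix (39 of 44 genes left). Psma3, Psmb7, Psmc3, Psmd9 and Psmd12 have only probe sets of such suffix, which may also detect related sequences. The counts were 0 in the 8 comparisons with limma on the arrays of the comparison alone. Without weights, 1 was called for the mean acetazolamide effect (Psme4, adjusted p = 0.0495) and 2 for cadmium minus acetazolamide in 12 h ectoderm (Psme4 and Psmg2); without denominator means and weights the latter count was 1 (Psmg2). Leaving out single arrays gave 0 to 2 calls in 3 h acetazolamide ectoderm, in 3 h acetazolamide mesoderm and for the mean cadmium effect (Psmb10 and Psme1, without 12 h cadmium ectoderm array 2), and 0 to 1 for the mean acetazolamide effect and for cadmium minus acetazolamide in 12 h ectoderm (Psme4). The share of all genes called in the same setting is given above for the 3 h acetazolamide comparisons only. The other counts here have no such share beside them, so they are not a result about the family. The cause of these calls was not tested.

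With only arrays 1 and 2, the alpha ring median was -0.23 in 12 h cadmium ectoderm and 0.12 in 3 h acetazolamide mesoderm, the median of all members there was 0.10, and 4 members lay above 0 in 3 h acetazolamide ectoderm. Over single arrays left out, the alpha ring median ran from -0.58 to -0.23 in 12 h cadmium ectoderm, from -0.24 to -0.0423 in 12 h cadmium mesoderm and from 0.12 to 0.31 in 3 h acetazolamide mesoderm. The median of all members ran from -0.22 to -0.005 in 12 h cadmium ectoderm, from -0.0375 to 0.0271 in 3 h cadmium ectoderm, from 0.0587 to 0.0995 in 3 h acetazolamide mesoderm and from -0.0371 to 0.133 in 12 h acetazolamide ectoderm. In 3 h acetazolamide ectoderm the median of all members ran from -0.2141 to 0.0414. Members above 0 ran from 4 to 27 in 3 h acetazolamide ectoderm and from 6 to 25 in 12 h acetazolamide mesoderm. Of 809 values of named genes under alternatives, 789 kept sign and side of the threshold, 7 passed it, 6 (Usp14) no longer did and 7 reversed. Only Usp14 passed it in the main fit, so most of the 789 are values that stayed uncalled. The count therefore says little about stability. Some alternatives also coincide: leaving out array 3 of either group gave the same difference as arrays 1 and 2 only. The reversals were Psmd10 in 3 h acetazolamide ectoderm (-0.2151, with 0.55 at most) and Psmd12 in 3 h cadmium ectoderm (0.02574, with -0.3131 at least), each with arrays 1 and 2 only and without array 3 of either group. Psme4 reversed in 12 h acetazolamide mesoderm (-0.02404 without acetazolamide array 1, 0.3685 without array 3).

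With the replicate number as a block, 0 members were called in all 22 contrasts. No label says that numbers mark a shared sample. The difference of arrays 1 and 2 correlated between treated and vehicle by -0.20 to 0.65 over the 8 comparisons, above 0.1 in 3 (0.65 in 12 h cadmium mesoderm, 0.55 in 3 h acetazolamide mesoderm, 0.22 in 3 h acetazolamide ectoderm), so a shared origin of same-numbered arrays was not shown over all comparisons and cannot be dismissed in these 3. A filter on dim probe sets was not run, as no levels were kept, and signal over background is unknown.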

Other observations

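The interferon-inducible activator pairs Psme1 with Psme2, for which 2 probe sets name Psme2 and its near copy Psme2b together and so cannot tell them apart. Their log2 differences ran from -0.22 to 0.07 over the 8 comparisons, and 0 of them passed the test (limma, adjusted over all probe sets).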
